A study of Mus musculus with 4 samples.

Results

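The genes described here encode the channels, pumps, exchangers and sensors that move calcium between the endoplasmic reticulum (ER), the cytosol, the outside of the cell and the mitochondria, with calmodulin and its kinase as readers of the cytosolic signal. They were taken by symbol from a fixed list of 33 genes, and each of the 33 symbols had 1 row among the 23282 rows of the count tables. By place, 15 members act in the ER or Golgi, 8 in the plasma membrane, 6 in mitochondria and 4 in the cytosol. Transcripts were counted by transcript-end sequencing in primary cells from the pancreas of C57BL/6J mice, labelled as acinar cells, the cells that make and secrete digestive enzymes. The treated group received an adenovirus carrying ERRγ (gene Esrrg), an orphan nuclear receptor known for its role in oxidative metabolism, and the control group an adenovirus carrying GFP, each at a multiplicity of infection of 100 for 36 h. Both groups were kept in the same medium with 2.5% serum, a trypsin inhibitor and 25 ng/ml epidermal growth factor, so these were present in the controls too. Each group had 2 libraries, and nothing in the labels ties the 2 to different mice or dishes; the spread behind each p-value may therefore be technical.

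In acinar cells calcium is the signal for enzyme secretion. Hormones and acetylcholine raise inositol trisphosphate (IP3), which opens IP3 receptors in the apical ER. SERCA pumps refill the ER, PMCA pumps expel calcium across the plasma membrane, and when the ER is depleted STIM sensors open ORAI channels to let calcium in. Mitochondria take calcium up through the uniporter, where it stimulates dehydrogenases of oxidative metabolism, and sustained calcium overload of acinar cells is a known feature of pancreatitis.

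Libraries held between 10105604 and 11012351 counts. Levels are given in CPM, the count relative to a library size adjusted by the trimmed mean of M values (TMM). The kit reads each transcript near its end, so that CPM was not divided by length when genes were set side by side. Esrrg stood at 130 and 1284 CPM in ERRγ libraries 1 and 2 and at 8.80 and 9.60 CPM in GFP libraries 1 and 2 (log2 fold change 6.26 with an SE of 1.00, edgeR adjusted p = 0.0109). The ERRγ libraries thus differed 9.90-fold in the level of Esrrg. Its counts do not separate the introduced gene from the cells' own. Leaving out ERRγ library 2 moved the log2 fold change to 3.81 and leaving out ERRγ library 1 to 7.12, and the call ended with limma-voom (adjusted p = 0.0623) and without GFP library 1 or 2 (0.168 and 0.127). Acinar transcripts were few for cells labelled acinar: the 13 acinar markers summed to between 46.4 and 95.7 CPM, with Ptf1a and Cckar at 0 counts in each library, against 2801 to 3874 CPM for the 8 duct markers. The acinar transcription factor genes Bhlha15 and Rbpjl were counted in each library, at 15 and 15 against 19 and 11 counts and at 25 and 43 against 6 and 11. Markers also differed between groups: the acinar Prss2 rose with ERRγ (14.0 and 26.8 against 3.79 and 2.15 CPM, adjusted p = 0.00905), as did the duct gene Cftr (13.2 and 12.7 against 4.60 and 6.28 CPM, adjusted p = 0.0444), and the duct genes Krt7 (796 and 803 against 1264 and 1245 CPM, adjusted p = 0.0285) and Muc1 (121 and 120.0 against 179 and 192 CPM, adjusted p = 0.0295) fell. Prss2 was the 1 acinar marker called of 8 tested, of which 3 lay above zero with ERRγ and 5 below. The part of the makeup of the cultures in the values below was not tested. The 9 stellate and fibroblast markers summed to 637 to 1087 CPM, and the 7 islet markers to 45.1, 13.1 CPM with ERRγ and 184 and 26.4 CPM with GFP, library 1 first throughout. In such bulk samples fewer cells of a type and less RNA per cell cannot be told apart.

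No member of the calcium list passed the test. Of the 33 members, 27 had enough counts to be tested, and 0 were called higher or lower with ERRγ at a Benjamini-Hochberg adjusted p under 0.05 in edgeR's quasi-likelihood test, where 6.84% of all 13070 genes tested were called. The smallest adjusted p among the members was 0.128. DESeq2 and limma-voom also called 0 members, among 7.69% and 6.66% of all genes. At an unadjusted p under 0.05 there were 9 of 27 members, against 23.1% of all genes; 5 of the 9 were higher with ERRγ (13.6% of all genes) and 4 lower (9.53%). Groups did not overlap in 18 members, against 54% of all genes. The median log2 fold change of the members was 0.04 and that of all genes −0.01.

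The test bounded the differences more tightly for some members than for others. The 95% interval of the difference lay within a 2-fold change either way for 18 of the 27 members and within a 1.5-fold change for 6 of them, Calm2, Calm3, Itpr2, Micu2, Atp2c1 and Orai1. Intervals were widest for the genes of lowest level, Atp2a3, Ryr3, Atp2b4, Slc8a1, Atp2c2 and Slc8b1. The members' levels also differed between libraries of 1 group: the median absolute log2 difference, with 0.5 CPM added, was 0.18 between the ERRγ libraries and 0.20 between the GFP libraries, beside 0.24 and 0.20 for all genes.

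**Figure D1:**
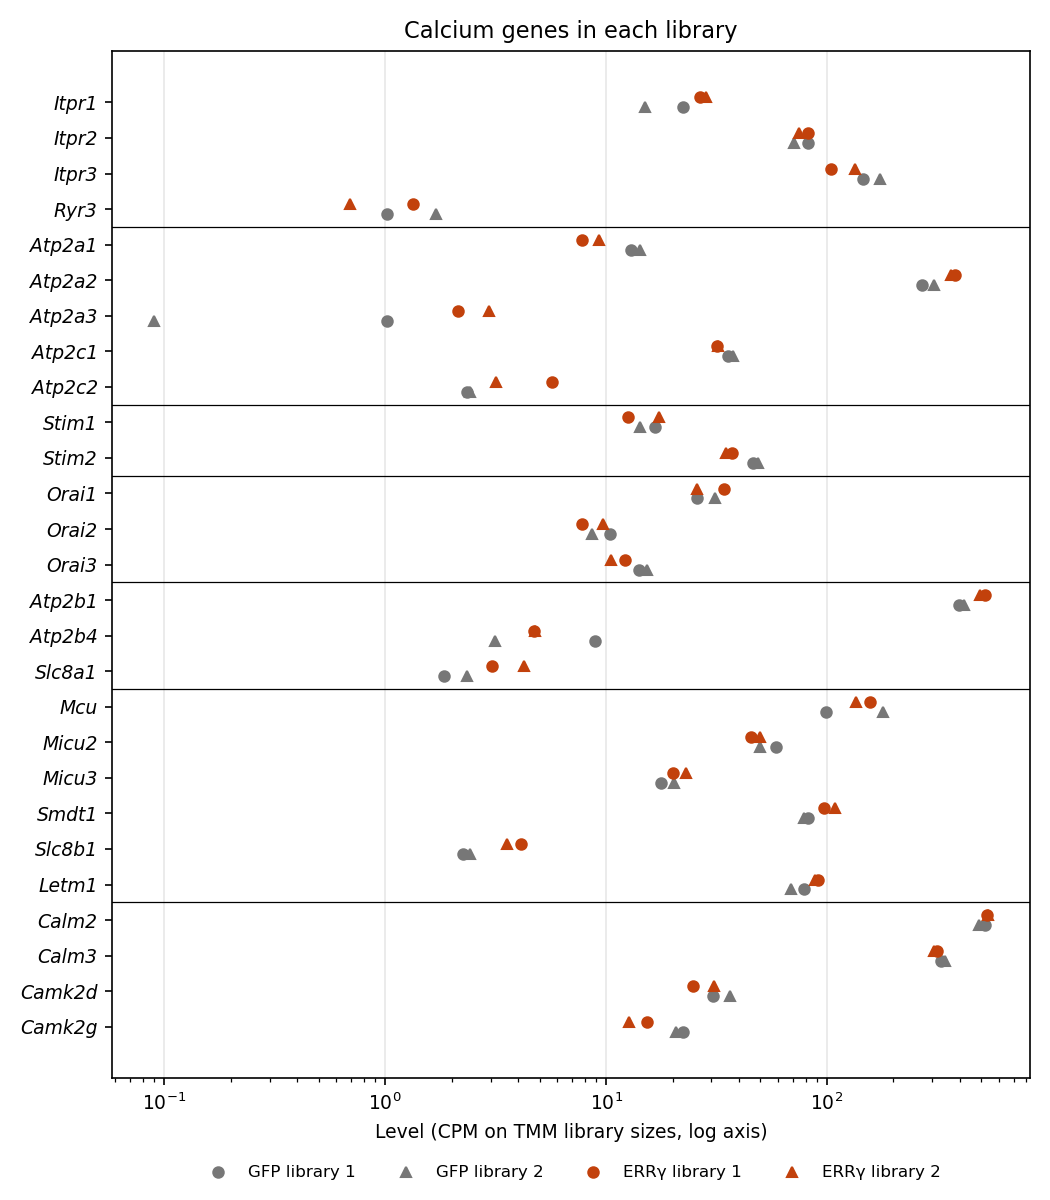
Level of each of the 27 tested calcium genes in each library, in CPM on a log axis, with GFP in grey and ERRγ in orange, circles for library 1 and triangles for library 2; lines part the ER release channels, ER and Golgi pumps, ER sensors, plasma membrane channels, plasma membrane pumps and exchanger, mitochondrial genes, and calmodulin with its kinase. Calm2, Atp2b1, Atp2a2 and Calm3 lie between 269 and 536 CPM in the libraries, and the grey and orange points of most genes lie close to each other.

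Among the release channels of the ER, the IP3 receptors were well expressed and the ryanodine receptors nearly absent. Itpr3 (chromosome 17, 27057304 to 27122223, plus strand, GRCm38), the receptor subtype that with Itpr2 carries secretory calcium release in acinar cells, stood at 105 and 133 CPM with ERRγ and 146 and 173 CPM with GFP. Both ERRγ libraries lay below both GFP libraries, by a fold of 1.34 on average (log2 fold change −0.42 with an SE of 0.17, 95% interval −0.80 to −0.04, adjusted p = 0.179). Itpr2 was level, at 82.2 and 74.9 CPM against 82.1 and 70.7 CPM (log2 fold change 0.04, interval −0.29 to 0.37). Itpr1, the subtype best known from neurons, stood at 26.6 and 28.3 CPM with ERRγ and 22.4 and 15.0 CPM with GFP, higher in both ERRγ libraries than in either GFP library (log2 fold change 0.55 with an SE of 0.23, adjusted p = 0.194). In the fit that left out ERRγ library 2, and so took its spread from the GFP pair only, Itpr3 passed (log2 fold change −0.61, adjusted p = 0.00451, where 11.9% of all genes were called). Over all 11 alternatives the adjusted p of Itpr3 ranged from 0.00451 to 0.588.

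Set as shares of IP3 receptor counts, Itpr3 took 49% and 56.4% with ERRγ against 58.2% and 66.9% with GFP (exact 95% counting intervals, 47 to 51.1, 54.4 to 58.4, 56.3 to 60.2 and 65.1 to 68.6). Itpr1 took 12.5% and 11.9% with ERRγ and 8.96% and 5.79% with GFP, while the share of Itpr2 overlapped between groups, at 38.5% and 31.7% against 32.8% and 27.3%. Itpr3 was the most counted subtype in each library, and its share was lower in both ERRγ libraries, with overlapping intervals for ERRγ library 2 and GFP library 1. With 2 libraries against 2, an exact permutation test of such a share cannot go below p = 0.333. The exact intervals here and below cover counting error only and leave out differences between libraries. The labels mention no molecular identifiers for the reads, so even the counting error may be larger than shown.

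The ryanodine receptors, the release channels of striated muscle and neurons, were at or near the detection limit. Ryr3 was counted 15 and 7 times with ERRγ, against 10 and 19 times with GFP (log2 fold change −0.42, interval −1.98 to 1.14). It met the main test's filter level of 0.947 CPM in both GFP libraries and in ERRγ library 1. Ryr1 was counted 1 and 9 times against 1 and 8, and Ryr2 5 and 2 times against 0 and 2 (ratio of group counts 3.43, exact 95% interval 0.653 to 33.9). Neither Ryr1 nor Ryr2 passed the filter of the main test, and without it their edgeR adjusted p was 0.962 and 0.727. In no library did a ryanodine receptor reach 2 CPM. Exons of Ryr3 overlap those of Aven on the opposite strand, and since the use of strand in counting is not given in the sources used here, its few counts could include reads of that gene.

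Pumps that fill the ER were represented almost wholly by SERCA2. Atp2a2 (chromosome 5, 122453513 to 122502225, minus strand), which encodes it, stood at 380 and 363 CPM with ERRγ and 269 and 305 CPM with GFP. Both ERRγ libraries were higher, by a fold of 1.29 on average (log2 fold change 0.37 with an SE of 0.14, 95% interval 0.05 to 0.69, adjusted p = 0.157), and it did not pass in any of the 11 alternatives, with adjusted p from 0.075 to 0.612. It took 97.5% and 96.7% of SERCA counts with ERRγ and 95% and 95.5% with GFP. Atp2a1, the SERCA1 of fast skeletal muscle, was lower in both ERRγ libraries, at 7.76 and 9.29 CPM with ERRγ and 12.99 and 14.3 CPM with GFP (log2 fold change −0.68 with an SE of 0.26, adjusted p = 0.164).

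Beside Atp2a1, the 11 striated muscle markers summed to 95.5 and 79.3 CPM with ERRγ and 181 and 137 CPM with GFP. Most of that sum was the actin gene Acta1 (63.0 and 46.6 against 156 and 109 CPM), which fell with ERRγ (log2 fold change −1.27, adjusted p = 0.0137), while Myh6, Myh7, Myl2, Mb and Myod1 were at 0 counts in each library. Of the 3 muscle markers tested, 2 lay below zero with ERRγ and 1 above. Ttn was lower in both ERRγ libraries, counted 22 and 7 times against 44 and 36, without passing (log2 fold change −1.52, adjusted p = 0.179). Tnnt2 lay the other way, at 29.2 and 31.1 against 19.8 and 24.6 CPM (log2 fold change 0.44, adjusted p = 0.2). So did 2 untested markers: Tnnt3 was counted 11 and 4 times against 0 and 0, and Actc1 4 and 4 times against 1 and 0. Atp2a1 also shares exon sequence with Rabep2 on the opposite strand, which stood at 13.5 and 15.4 against 16.7 and 20.5 CPM. The part of either in the values of Atp2a1 was not tested.

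Atp2a3, the SERCA3 of blood cells and secretory epithelia, was counted 24 and 30 times with ERRγ, against 10 and 1 times with GFP. The difference was large on the log2 scale but poorly bounded (log2 fold change 2.22 with an SE of 0.87, interval 0.21 to 4.22, adjusted p = 0.178), and it ran from 1.31 without GFP library 2 to 4.66 without GFP library 1. The islet markers summed to most in GFP library 1 (184 CPM), which held 10 of the 11 GFP counts of Atp2a3. They summed to least in ERRγ library 2 (13.1 CPM), which held the most Atp2a3 counts, and their sums overlapped between the groups. The part of islet cells in this difference was not tested. Atp2a3 met the filter's level of 0.947 CPM in both ERRγ libraries, where its level was higher, and in GFP library 1 but not in GFP library 2. It thus depended on the ERRγ libraries to be tested.

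The small SERCA inhibitor phospholamban, Pln, had 1 count in GFP library 1 and 0 in the others; a count of 0 allows up to 3 counts, which is 0.268 to 0.296 CPM in those libraries. Casq1, the calsequestrin that buffers calcium inside the ER of skeletal muscle, was counted 12 and 5 times with ERRγ, against 2 and 0 times with GFP (ratio of group counts 8.33, exact 95% interval 1.98 to 74.4); it had too few counts for the main test, and without the filter its edgeR adjusted p was 0.332. The Golgi pump gene Atp2c1 stood at 31.9 and 32.1 CPM with ERRγ and 35.8 and 37.6 CPM with GFP (log2 fold change −0.20, interval −0.54 to 0.14). Its epithelial relative Atp2c2, known from secretory glands, had 5.71 and 3.16 CPM with ERRγ and 2.35 and 2.42 CPM with GFP (log2 fold change 0.89 with an SE of 0.47, adjusted p = 0.304). Atp2c2 made up 15.2% and 8.96% of SPCA counts with ERRγ and 6.17% and 6.05% with GFP, highest in ERRγ library 1.

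Of the ER calcium sensors, Stim2 was the more abundant. Stim2 (chromosome 5, 53998499 to 54121057, plus strand), the sensor that responds to small losses of ER calcium, stood at 37.2 and 34.9 CPM with ERRγ and 46.1 and 48.5 CPM with GFP. All values with ERRγ were lower than those with GFP, by a fold of 1.31 (log2 fold change −0.39 with an SE of 0.14, 95% interval −0.72 to −0.07, adjusted p = 0.144). Stim1, which couples depleted stores to ORAI1, gave 12.6 and 17.3 CPM with ERRγ and 16.6 and 14.3 CPM with GFP (log2 fold change −0.05, interval −0.62 to 0.52). Its ERRγ libraries enclosed the GFP libraries. The share of Stim1 in STIM counts was 25.3% and 33.1% with ERRγ and 26.4% and 22.7% with GFP, which overlapped.

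At the plasma membrane, the store-operated channels showed no difference beyond the spread. Orai1 (chromosome 5, 123015074 to 123030456, plus strand), the pore of store-operated entry in acinar cells, stood at 34.3 and 25.9 CPM with ERRγ and 25.9 and 31.1 CPM with GFP (log2 fold change 0.08 with an SE of 0.20, 95% interval −0.37 to 0.53, adjusted p = 0.857). Orai2 lay at 7.76 and 9.68 against 10.4 and 8.62 CPM (log2 fold change −0.13, interval −0.79 to 0.54). Orai3 was a little lower in both ERRγ libraries, at 12.2 and 10.5 against 14.1 and 15.3 CPM (log2 fold change −0.38, interval −0.92 to 0.17, adjusted p = 0.388). Orai1 took between 51.3% and 63.2% of ORAI counts in the 4 libraries. Trpc1, a cation channel linked to store-operated entry, was counted 1 time in each ERRγ library and 4 and 2 times with GFP (ratio of group counts 0.327, exact 95% interval 0.0323 to 1.83); without the filter its edgeR adjusted p was 0.773.

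Nearly all counts of the plasma membrane calcium pumps came from Atp2b1. Atp2b1 (chromosome 10, 98914406 to 99026143, plus strand), which encodes PMCA1, stood at 517 and 491 CPM with ERRγ and 395 and 418 CPM with GFP. Both ERRγ libraries were above both GFP libraries, by a fold of 1.24 (log2 fold change 0.31 with an SE of 0.13, 95% interval 0.00 to 0.62, adjusted p = 0.212). It made up between 97.8% and 99.3% of PMCA counts. Atp2b4, which encodes PMCA4, was highest in GFP library 1 (8.90 CPM) and lowest in GFP library 2 (3.14 CPM), with both ERRγ libraries between them at 4.73 and 4.74 CPM. Its log2 fold change of −0.34 turned to 0.58 without GFP library 1 and to −0.91 without GFP library 2.

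Atp2b2, the PMCA2 of neurons and lactating mammary gland, had 4 counts in ERRγ library 2 and 0 in the other 3 libraries. The sodium-calcium exchanger gene Slc8a1 gave 3.03 and 4.25 CPM with ERRγ and 1.84 and 2.33 CPM with GFP (log2 fold change 0.79 with an SE of 0.48, interval −0.31 to 1.89, adjusted p = 0.365). Its ERRγ libraries were higher than its GFP libraries, at 18 to 43 counts a library.

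**Figure D2:**
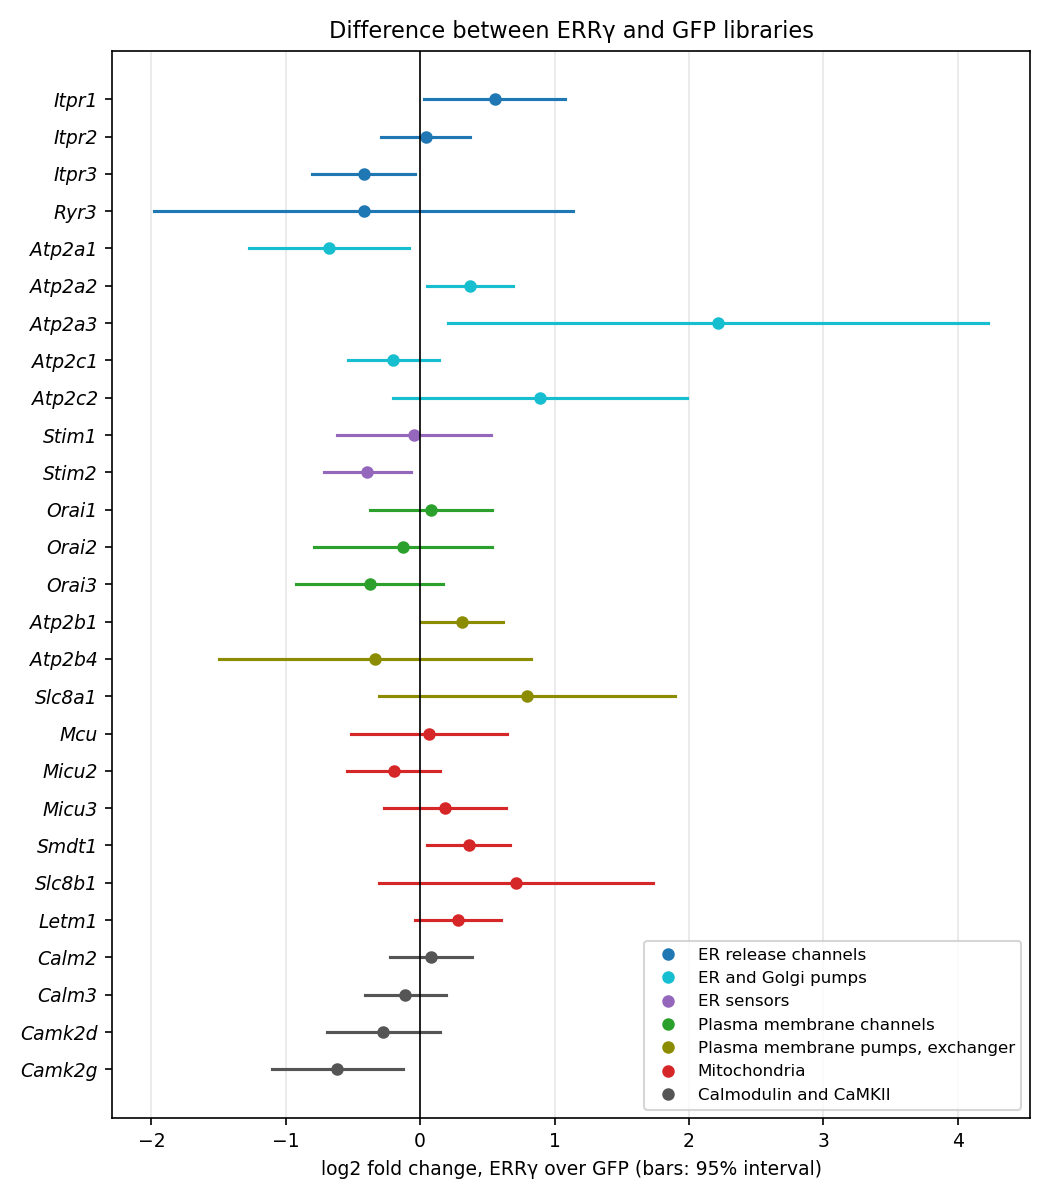
log2 fold change of each tested calcium gene, ERRγ over GFP, with its 95% interval from edgeR's quasi-likelihood fit, coloured by place and role. Most points lie within 1 unit of zero on either side; Atp2a3, at 2.22, has the longest bar, and the bars of Calm2, Calm3 and Atp2b1 are among the shortest.

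In mitochondria, the pore and 2 gatekeepers of the uniporter did not differ between groups beyond the spread, and its essential subunit gene Smdt1 was a little higher with ERRγ without passing the test. Mcu (chromosome 10, 59446984 to 59616692, minus strand), the pore, stood at 156 and 136 CPM with ERRγ and 99.3 and 179 CPM with GFP. The ERRγ libraries lay between the GFP libraries (log2 fold change 0.07 with an SE of 0.25, 95% interval −0.51 to 0.65, adjusted p = 0.908), so that the sign depended on the GFP library kept: −0.30 without library 1 and 0.55 without library 2. Smdt1 (chromosome 15, 82338959 to 82349091, plus strand) encodes EMRE, which holds the pore and its gatekeepers together. It stood at 97.2 and 109 CPM with ERRγ and 81.6 and 78.7 CPM with GFP, a fold of 1.28 (log2 fold change 0.36 with an SE of 0.13, interval 0.05 to 0.67, adjusted p = 0.16). Without ERRγ library 1 it passed (log2 fold change 0.44, adjusted p = 0.0469, where 20% of all genes were called), again on the spread of the GFP pair. Over all 11 alternatives its adjusted p ranged from 0.0469 to 0.491. Smdt1 overlaps the exons of Pheta2, listed under its older symbol Fam109b, which had 4 to 7 counts a library.

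Of the gatekeepers, Micu2 gave 45.1 and 49.6 CPM with ERRγ and 58.6 and 49.99 CPM with GFP (log2 fold change −0.20, interval −0.54 to 0.15). Micu3, a gatekeeper known from brain and muscle, gave 20.2 and 22.9 against 17.7 and 20.2 CPM (log2 fold change 0.18, interval −0.27 to 0.64). Mcu was the most counted of these 4 uniporter genes, with a share between 38.6% and 54.6%, and the widest gap lay between the GFP libraries. The genes of calcium exit did not pass either. Slc8b1, the mitochondrial sodium-calcium exchanger NCLX, had 4.10 and 3.56 CPM with ERRγ and 2.25 and 2.42 CPM with GFP (log2 fold change 0.71 with an SE of 0.44, adjusted p = 0.383), and Letm1, an inner-membrane protein proposed to exchange calcium or potassium for protons, 91.1 and 88.7 against 79.1 and 68.8 CPM (log2 fold change 0.28 with an SE of 0.14, adjusted p = 0.269). Slc8b1 ends 128 bases from the end of Tpcn1, a gene of the opposite strand that rose with ERRγ, and any share of its reads in the counts of Slc8b1 was not tested. For both Slc8b1 and Letm1 each ERRγ library exceeded each GFP library, as it did for 3587 of all 13070 genes tested. Over the 6 mitochondrial members the median difference was 0.23 (log2), with 5 of 6 above zero. Of all 13070 genes 6431 lay above zero, and the sign of Mcu, among the 5, depended on the GFP library kept.

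**Figure D3:**
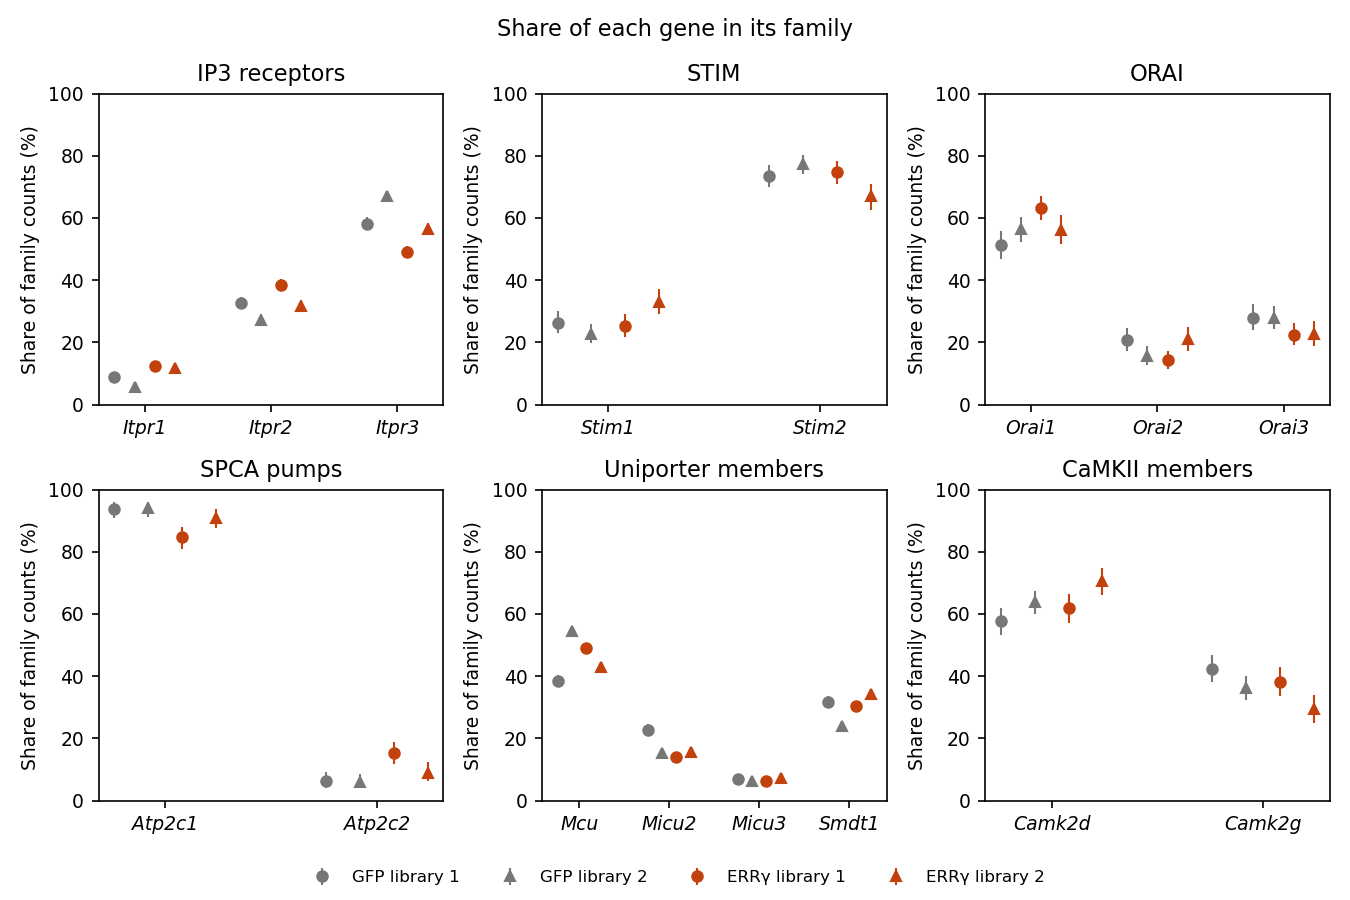
Share of each gene in the counts of its family (percent) in each library, with exact 95% counting intervals as bars; GFP in grey, ERRγ in orange, circles for library 1 and triangles for library 2. The share of Itpr3 was 49% and 56.4% with ERRγ and 58.2% and 66.9% with GFP, whereas the shares of Stim1, Orai1, Orai2 and Mcu overlap between groups.

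Calmodulin, the cytosolic calcium sensor, was the most abundant product among the members. Calm2 (chromosome 17, 87433412 to 87446935, minus strand) stood at 529 and 536 CPM with ERRγ and 520 and 489 CPM with GFP, a difference bounded within a fold of 0.855 to 1.30 (log2 fold change 0.08 with an SE of 0.13, 95% interval −0.23 to 0.38, adjusted p = 0.775). Calm3, which encodes the same protein, gave 315 and 306 against 329 and 341 CPM (log2 fold change −0.11, interval −0.41 to 0.19). Camk2g (chromosome 14, 20734875 to 20794088, minus strand), the γ isoform of calmodulin-dependent kinase II, had the smallest p of the members. It stood at 15.3 and 12.7 CPM with ERRγ and 22.4 and 20.7 CPM with GFP, lower in both ERRγ libraries by a fold of 1.53 (log2 fold change −0.62 with an SE of 0.21, interval −1.10 to −0.13, adjusted p = 0.128). It passed without ERRγ library 1 (log2 fold change −0.76, adjusted p = 0.0354), and its adjusted p ranged up to 0.468 over the 11 alternatives. Camk2d gave 24.8 and 30.7 against 30.5 and 36.5 CPM, with overlapping groups (log2 fold change −0.27, interval −0.69 to 0.15).

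Of the other genes of calcium handling, taken from 5 lists, 10 of 115 tested passed the threshold, or 8.7%, near the 6.84% of all genes; 7 were higher and 3 lower with ERRγ. Of these 10 calls 8 ended in the fits without GFP library 1 or GFP library 2, where 0.727% and 1.02% of all genes were called, with the values given below. In the list of other mitochondrial calcium and contact-site genes, 4 of 26 tested rose and 0 fell (median log2 fold change 0.19), against 5.06% and 1.78% of all genes that were called higher and lower. Vdac1, the outer-membrane channel through which calcium reaches the uniporter, rose from 125 and 138 CPM to 267 and 295 CPM (log2 fold change 1.10 with an SE of 0.14, adjusted p = 0.00481). Without GFP library 1 its log2 fold change was 1.03 (adjusted p = 0.11) and without GFP library 2 it was 1.17 (adjusted p = 0.0673). Other genes tied to the maturation of the uniporter's subunits rose too. Afg3l2, a subunit of the m-AAA protease that removes unassembled EMRE, went from 38.3 and 42.1 to 56.9 and 80.1 CPM (log2 fold change 0.77 with an SE of 0.19, adjusted p = 0.0499). The gene for the m-AAA partner MAIP1, listed under its older symbol 9430016H08Rik, rose from 14.3 and 13.6 to 27.0 and 26.3 CPM (log2 fold change 0.93, adjusted p = 0.0264), and the prohibitin gene Phb, whose product binds that protease, from 73.5 and 86.2 to 123 and 136 CPM (log2 fold change 0.70, adjusted p = 0.0293). The groups did not overlap in any of these 4 genes, beside 54% of all genes without overlap. Since the 4 were named for passing the test on the same libraries, this is no separate check. The call for Afg3l2 was marginal and ended with RLE size factors in place of TMM (adjusted p = 0.0513) and with limma-voom (0.0618).

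In the list of other plasma membrane and lysosomal calcium channels, Tpcn1 was the 1 of 19 tested genes that rose, and 0 fell (median −0.08), a share near the 5.06% of all genes that were called higher. It encodes the two-pore channel TPC1 of endosomes and lysosomes, which responds to the messenger NAADP. Its level rose from 23.5 and 23.2 CPM with GFP to 87.9 and 73.0 CPM with ERRγ, a fold of 3.44 (log2 fold change 1.78 with an SE of 0.16, adjusted p = 0.00101). Both ERRγ libraries were far above the GFP libraries, and the call held in each of the 11 alternatives. Its relative Tpcn2 did not pass, at 7.94 and 5.63 against 9.31 and 9.15 CPM.

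Among the calmodulin, calcineurin and kinase targets, Rcan2 was the 1 of 22 tested genes that rose, and 0 fell (median 0.03), again beside 5.06% of all genes called higher. Rcan2, an inhibitor of the calcium-activated phosphatase calcineurin, rose from 2.86 and 4.58 CPM to 23.9 and 24.4 CPM, a fold of 6.44 (log2 fold change 2.69 with an SE of 0.29, adjusted p = 0.00264). This call too held in each of the 11 alternatives. Its relative Rcan1 gave 19.6 and 78.2 CPM with ERRγ and 20.3 and 15.8 CPM with GFP (adjusted p = 0.156), so that the high value was in ERRγ library 2 alone.

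In the list of IP3 and cyclic ADP-ribose production and breakdown, 1 of 22 tested genes rose and 2 fell (median 0.01), beside 5.06% of all genes called higher and 1.78% called lower. Plce1, a phospholipase C that makes IP3 downstream of small GTPases, rose from 0.92 and 0.90 CPM to 7.94 and 5.73 CPM (log2 fold change 2.90 with an SE of 0.46, adjusted p = 0.0109), at 9 and 10 counts with GFP and 89 and 58 with ERRγ. It entered the test only through the ERRγ libraries, since both GFP libraries lay under the filter's level of 0.947 CPM. A gene at its GFP level in all libraries would not have been tested. Bst1, an ectoenzyme that makes cyclic ADP-ribose as its relative Cd38 does, overlaps Fbxl5 on the opposite strand and fell from 8.59 and 11.1 to 2.23 and 2.47 CPM (log2 fold change −2.07 with an SE of 0.35, adjusted p = 0.0147). Itpripl2, a gene named for its similarity to an IP3 receptor-interacting protein, fell from 381 and 380 to 191 and 193 CPM (log2 fold change −0.99 with an SE of 0.13, adjusted p = 0.00548). Gnaq, the G protein subunit behind hormone receptors, gave 93.3 and 89.4 against 114 and 112 CPM and did not pass (adjusted p = 0.207).

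In the list of other ER calcium proteins, Bcl2 was the 1 of 26 tested genes that fell, and 0 rose (median 0.01), beside 1.78% of all genes called lower and 5.06% called higher. Its product, a survival protein that also binds IP3 receptors, went from 47.8 and 45.4 to 27.6 and 26.0 CPM at the transcript level (log2 fold change −0.80 with an SE of 0.15, adjusted p = 0.019). The luminal buffer calreticulin, Calr, stood at 759 and 881 CPM with ERRγ and 740 and 649 CPM with GFP (adjusted p = 0.385), and the ER chaperone gene Hspa5 at 839 and 973 against 929 and 875 CPM (adjusted p = 0.983). In the fits that left out GFP library 1 or GFP library 2, and so took their spread from the ERRγ pair, the calls for Vdac1, Afg3l2 (adjusted p = 0.349 and 0.223), 9430016H08Rik (0.197 and 0.181), Phb (0.297 and 0.136), Itpripl2 (0.096 and 0.0799), Plce1 (0.13 and 0.112), Bst1 (0.112 and 0.162) and Bcl2 (0.204 and 0.138) ended, whereas those for Tpcn1 and Rcan2 held.

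**Figure D4:**
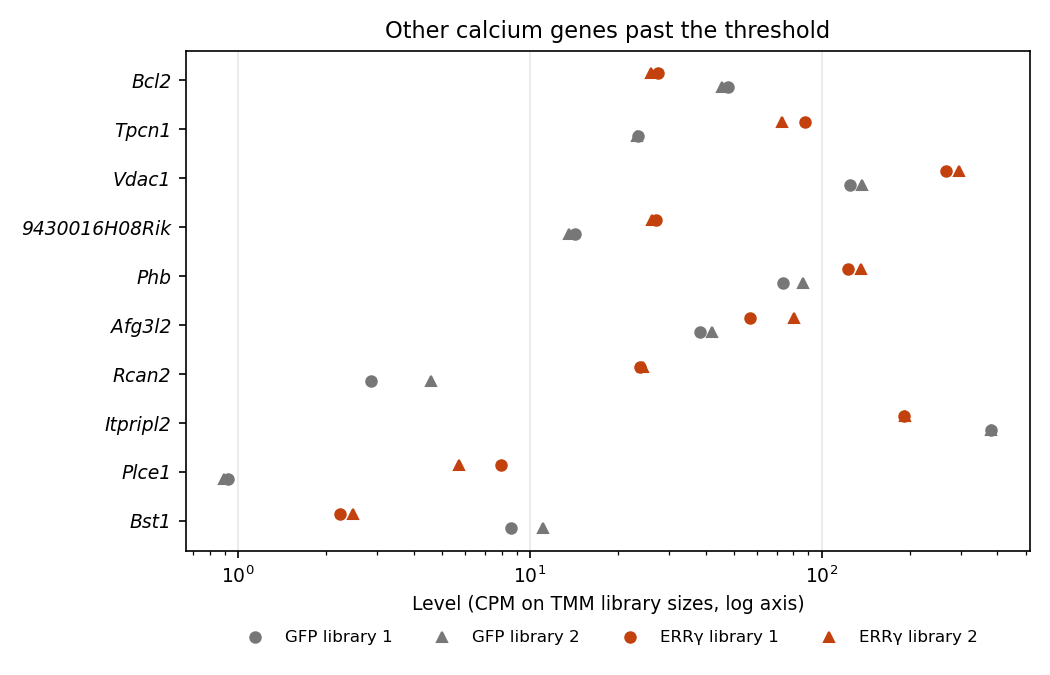
Level of the 10 calcium-handling genes outside the member list that passed the threshold, in CPM on a log axis, with GFP in grey, ERRγ in orange, circles for library 1 and triangles for library 2. The orange points of Tpcn1, Vdac1, 9430016H08Rik, Phb, Afg3l2, Rcan2 and Plce1 lie right of the grey points, and those of Bcl2, Itpripl2 and Bst1 lie left of them.

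ERRγ binds the half-site AAGGTCA, which was searched on both strands in promoter windows from RefSeq (GRCm38.p6) that run from 250 bases before to 50 after a transcript start. Of the 33 members, 25 had a window, 29 windows in all, and 0 of these held the half-site, where 4.72% of all 32851 windows and 3.39% of those of tested genes did. The extended form TCAAGGTCA, which contains the half-site, was in 0 of the 29 windows and in 0.423% of all windows. In the 5 other calcium lists 11 of 158 windows held AAGGTCA. Of the genes past the threshold there, Vdac1 had the half-site in 1 of its 2 windows. That window (chr11:52361347-52361646, plus strand) is shown beside the window of Smdt1 (chr15:82345796-82346095, plus strand), the mitochondrial member with the smallest p, in lower case with the half-site, here as its reverse complement TGACCTT from 106 to 100 bases before the start, in capitals.
Vdac1: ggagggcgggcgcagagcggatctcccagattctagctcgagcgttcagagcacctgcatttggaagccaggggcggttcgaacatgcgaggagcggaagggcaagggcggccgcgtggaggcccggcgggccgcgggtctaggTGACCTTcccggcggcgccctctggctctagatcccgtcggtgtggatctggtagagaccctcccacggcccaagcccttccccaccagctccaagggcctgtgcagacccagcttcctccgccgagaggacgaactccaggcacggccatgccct
Smdt1: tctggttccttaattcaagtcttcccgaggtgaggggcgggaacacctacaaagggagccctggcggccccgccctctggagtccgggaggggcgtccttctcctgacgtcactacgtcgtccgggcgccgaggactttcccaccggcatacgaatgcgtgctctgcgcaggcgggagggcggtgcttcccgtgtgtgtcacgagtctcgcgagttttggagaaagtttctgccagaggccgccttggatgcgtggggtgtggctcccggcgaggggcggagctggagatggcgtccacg
The windows are similarly rich in G and C, at 68.3% and 65.3%. A match describes the letters of this window only, and binding was not measured here.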

How the data were processed

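The deposited tables hold whole-number read counts per gene symbol, 1 table a library for 4 libraries, not normalized; libraries were made from 500 ng of total RNA with a Lexogen QuantSeq kit, per the labels' protocols. The submitters' processing notes name Bowtie2, edgeR and mm10. Not given in the sources used here are the counter, the annotation, the use of strand and the handling of multi-mapping reads. Groups came from the sample titles. The test was edgeR 4.0.16 in R 4.3.3: filterByExpr with a minimum count of 10 left 13070 of 23282 rows, sizes were scaled by TMM, and glmQLFit and glmQLFTest were fitted to all 4 libraries with the group alone (two-sided, Benjamini-Hochberg over all genes tested, threshold 0.05). The standard error (SE) is the log2 fold change divided by the square root of F, and 95% intervals use the fit's total degrees of freedom. The code was tested on simulated data. A chi-square per degree of freedom of 22.6 between the ERRγ libraries and 14.3 between the GFP libraries showed more than counting noise.

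Alternatives were other size factors, library totals, no filter, a mean of at least 5 CPM, DESeq2 1.42.0, limma-voom (limma 3.58.1), a replicate block and leaving out each library. The members and lists were chosen with earlier results of these data known. Values are given for all members, with full statistics for any past the threshold and for the most abundant of each list; from each other list up to 4 genes past the threshold were named by smallest p, and further genes (Itpr1, Atp2a1, Atp2a3, Smdt1, Camk2g, Acta1, Tnnt2, Prss2, Cftr, Krt7, Muc1, Tpcn2, Rcan1, Gnaq, Calr, Hspa5 and the like) and the family shares were chosen after their values were seen; some listed genes are not reported here. Older symbols were matched through RefSeq synonyms, and positions come from GENCODE M21 on GRCm38, matched by symbol for 33 of 33 members. Exons of 7 members overlap another coding gene.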

Additional observations from a re-analysis of the deposited data

How the results depend on the processing

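In the 7 fits of all 4 libraries other than the main one, 0 members were called, and the lowest adjusted p of a member was 0.0512 (Atp2a3, no filter). Leaving out 1 library gave 0 to 1 members called higher (Smdt1 without ERRγ library 1) and 0 to 1 called lower (Camk2g without ERRγ library 1, Itpr3 without ERRγ library 2), and 92 to 1597 genes higher and 7 to 1098 lower among all genes, against 661 and 233 in the main fit. Without a filter 1271 genes were called higher and 738 lower. Of 292 values of tested members under the alternatives, 278 kept their direction and side of the threshold, 3 passed it and 11 changed sign, each by leaving out 1 library. Their log2 fold changes over the 4 such fits ran from −0.065 to 0.146 for Itpr2, −0.295 to 0.166 for Stim1, −0.139 to 0.263 for Orai1, −0.295 to 0.025 for Orai2, −0.911 to 0.585 for Atp2b4 and −0.30 to 0.554 for Mcu. The replicate block, with the title numbers as pairs, called 0 members and 1091 genes in all, beside 894 without it; the numbers share no stated animal or day, and the differences between numbers 1 and 2 were uncorrelated between groups (r = 0.007 over 13070 genes). The share of member promoter windows with the half-site was 0. That fixed the share of the extended form, which contains the half-site, so the extended form was no separate check. Low counts kept 6 of the 33 members out of the test, and a p that misses the threshold does not show equal levels in the 27 others.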
